A study of Rattus norvegicus with 74 samples.

Results

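The libraries described here were the 15 skeletal muscle libraries of sedentary rats, split by the rat number in their titles: 7 came from rats numbered 4 to 16 (4, 7, 8, 11, 12, 15 and 16) and 8 from rats numbered 19 to 32 (19, 20, 23, 24, 29, 30, 31 and 32). They were 15 of 74 libraries in the series, and each came from a different rat. All were male wild-type Wistar Kyoto rats, taken from 32 animals obtained for the study and killed at 9 weeks of age, so the 2 groups shared strain, sex, age and regime as far as the labels go. For 4 weeks from the age of 5 weeks, 5 days a week, the sedentary rats were placed on a treadmill that did not move, for as long as the trained rats ran (60 min at 20 m per min), and every rat drank water with 8% deuterium oxide. The inner red part of the gastrocnemius was taken 24 h after the last session, and libraries were made from 50 ng of total RNA with a kit that removes ribosomal RNA. The other muscle libraries of the same kind came from 15 trained rats, 7 numbered 2 to 14 and 8 numbered 17 to 28. The labels give no date, run or order of collection for any rat number, so the 2 ranges are called lower-numbered and higher-numbered rats and nothing more. The rats were housed in pairs, but the labels do not say which rats shared a cage.

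The gastrocnemius is a calf muscle made of fibres that differ in speed and fuel. Slow fibres use the myosin heavy chain Myh7 and burn fat in many mitochondria, fast oxidative fibres use Myh2, and the fastest fibres use Myh4 and rely on glycogen and glycolysis. The red inner part is the oxidative part of the muscle, and how much of each fibre type a piece contains sets the level of many muscle transcripts.

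All 15 libraries carried skeletal muscle transcripts at high level. Levels are in CPM, counts per 1000000 of the library's total over genes passing the expression filter, with that total scaled by edgeR's TMM factor. The summed level of 7 muscle fibre markers ran from 115358 to 197478 CPM in lower-numbered rats and from 114728 to 180321 CPM in higher-numbered rats. Unscaled gene totals were 22385138 to 30053603 counts per library in the lower range and 20876971 to 32055355 in the higher range. The 3 counts taken as the floor of detection thus came to 0.0936 to 0.144 per 1000000 of these totals. No 2 libraries of the same range agreed within sampling noise. In 1 library, from rat 7, all 15 hepatocyte markers of a list chosen after seeing the data were above 0 and summed to 957 CPM, with albumin (Alb) at 456 CPM. The other 14 summed to 25.7 to 58.2 CPM, mostly transferrin, and held Alb at 0.538 CPM at most. The called genes, the library measures that passed and the medians of the contractile lists are therefore also given without rat 7. Most other list results are given with it.

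Of 13515 genes tested, 35 differed between the 2 ranges (0.259% called at an adjusted p under 0.05; edgeR's quasi-likelihood test with Benjamini-Hochberg adjustment). The higher-numbered rats had higher levels of 10 genes (0.0740% of those tested) and lower levels of 25 (0.185%). They included higher Esrra, a nuclear receptor that drives genes of mitochondrial energy metabolism, and Mrpl45, a protein of the mitochondrial ribosome, and lower Chac1, an enzyme that breaks down glutathione, Lmod1, which nucleates actin filaments, Snrpc, a protein of the U1 splicing particle, and Eif3k, a subunit of a translation initiation factor. Most differences were small: 13 of the 35 reached a fold of 1.5 in either direction and 5 reached 2. For 22 of the 35 the libraries of the 2 ranges did not overlap, against 55 of all genes tested (0.407%). At an unadjusted p under 0.05 there were 2177 genes (16.1%), 1028 higher (7.61%) and 1149 lower (8.50%). The log2 fold changes of all 13515 genes had a median of 0.01.

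The count of 35 rested on individual libraries. Leaving out 1 rat at a time gave between 0 and 162 called genes, with a median of 9: 5 without rat 4, 2 without rat 7, 12 without rat 8, 129 without rat 11, 3 without rat 12, 0 without rat 15, 8 without rat 16, 1 without rat 19, 19 without rat 20, 2 without rat 23, 30 without rat 24, 162 without rat 29, 104 without rat 30, 9 without rat 31 and 76 without rat 32. Without rat 15, 1926 genes had an unadjusted p under 0.05 in edgeR and the smallest adjusted p was 0.0671. The fold changes moved less than the count. The 35 genes were chosen in these same libraries, so a kept direction or a small unadjusted p says little about stability. Without rat 7 all 35 genes kept their direction, their log2 fold changes were 0.896 to 1.10 times the values with all libraries and their unadjusted p was at most 0.000398, while 2 remained called. For the 19 genes named by rule below, the adjusted p without rat 7 was 0.0607 to 0.117 (edgeR). DESeq2 called 418 genes in the same libraries, 175 higher and 243 lower, and 34 of the 35 were among them.

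**Figure D1:**
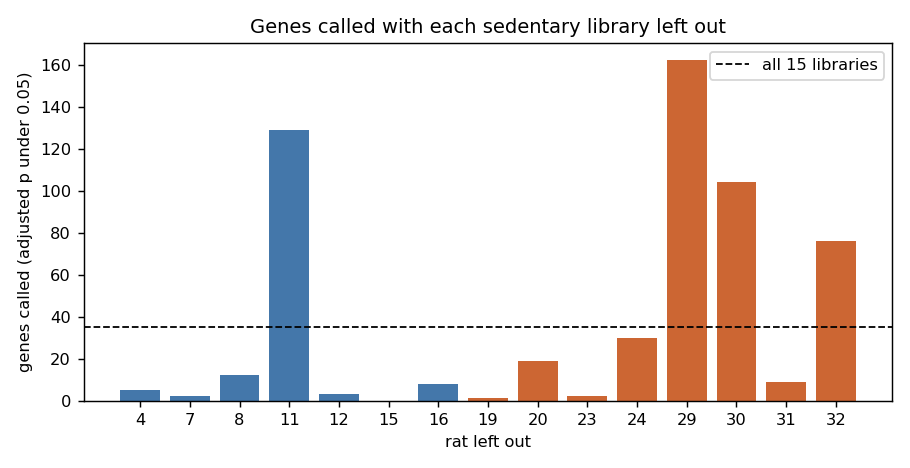
Number of genes called between the lower-numbered and higher-numbered sedentary rats (edgeR, adjusted p under 0.05) when each rat is left out in turn, 1 bar per rat (blue for lower-numbered, orange for higher-numbered rats); the dashed line is the count with all 15 libraries. Counts run from 0 without rat 15 to 162 without rat 29.

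Among the genes that rose, Esrra had the largest fold of those named. Its level was 2.69 to 5.00 CPM in lower-numbered rats, with a median of 4.45, and 4.84 to 8.51 CPM in higher-numbered rats, with a median of 7.31. Of the 8 higher-numbered rats, 6 lay above every lower-numbered rat. The fold was 1.68 (log2 fold change 0.75 ± 0.15 SE, adjusted p 0.0460, edgeR). Mrpl45 ran from 28.6 to 37.3 CPM with a median of 35.0 in lower-numbered rats, and from 37.3 to 52.7 CPM with a median of 45.7 in higher-numbered rats. The lowest of the higher-numbered rats lay just inside the lower range and the other 7 lay above it, a fold of 1.31 (0.39 ± 0.08, adjusted p 0.0492).

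Esrra and Mrpl45 were each the lone called member of their gene list. Of 17 tested regulators of mitochondrial biogenesis and endurance, Esrra was called and the median log2 fold change was 0.09 (0.04 without rat 19). The coactivator Ppargc1a, which works with Esrra, had medians of 33.4 CPM in lower-numbered and 31.2 CPM in higher-numbered rats, and did not pass (−0.05 ± 0.08, adjusted p 0.824). Of 70 mitochondrial ribosomal protein genes, 7 were higher, Mrpl45 among them, and 8 lower at an unadjusted p under 0.05, and the median was −0.01. Among 78 nuclear-encoded subunits of the respiratory chain, 0 were called, 6 were higher and 6 lower at an unadjusted p under 0.05, and the median was 0.05. Over all genes tested, 7.61% were higher and 8.50% lower at that p, so these counts do not set either list apart. With the mitochondrial-genome share as a covariate the medians of these last 2 lists were −0.10 and −0.09, and without rat 24 they were 0.04 and 0.10. Atp5f1b, the most abundant of them, encodes the catalytic part of the ATP synthase and had medians of 1750.5 CPM and 1871.4 CPM (0.04 ± 0.10, adjusted p 0.879).

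P2X receptors are ion channels opened by extracellular ATP, and 2 of them were called in opposite directions. P2rx5 had 6.10 to 9.50 CPM, median 7.48, in lower-numbered rats and 7.65 to 13.1 CPM, median 11.5, in higher-numbered rats. The groups overlapped, with 6 of the 8 higher-numbered rats above the lower range (0.55 ± 0.11, adjusted p 0.0492). P2rx6 had 11.04 to 17.9 CPM, median 15.4, in lower-numbered rats and 7.46 to 13.8 CPM, median 9.28, in higher-numbered rats. Here 6 of the 8 higher-numbered rats lay below the lower range (−0.59 ± 0.12, adjusted p 0.0492).

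Ifi47 and Gvin1, both of the interferon-induced GTPase families, rose. Ifi47 had 4.48 to 6.04 CPM, median 5.18, in lower-numbered rats and 6.14 to 8.54 CPM, median 7.02, in higher-numbered rats. The ranges did not overlap (0.46 ± 0.10, adjusted p 0.0496). Gvin1 had 10.7 to 13.8 CPM, median 12.96, against 13.2 to 18.6 CPM, median 16.6, with 7 of the 8 higher-numbered rats above the lower range (0.41 ± 0.08, adjusted p 0.0463). Neither is in the list of interferon response genes, of whose 22 tested members 0 were called, 6 were higher and 0 lower at an unadjusted p under 0.05, and the median was 0.17 (0.11 without rat 8). Over all genes tested, 7.61% were higher and 8.50% lower at that p. The remaining named genes that rose were Wdr37, from a median of 22.9 CPM to 30.01 CPM with no overlap (0.45 ± 0.09, adjusted p 0.0411), and Rapgef2, from a median of 30.2 CPM to 38.9 CPM (0.35 ± 0.06, adjusted p 0.0299). The feature named Rapgef2 is listed as a pseudogene in the table.

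**Figure D2:**
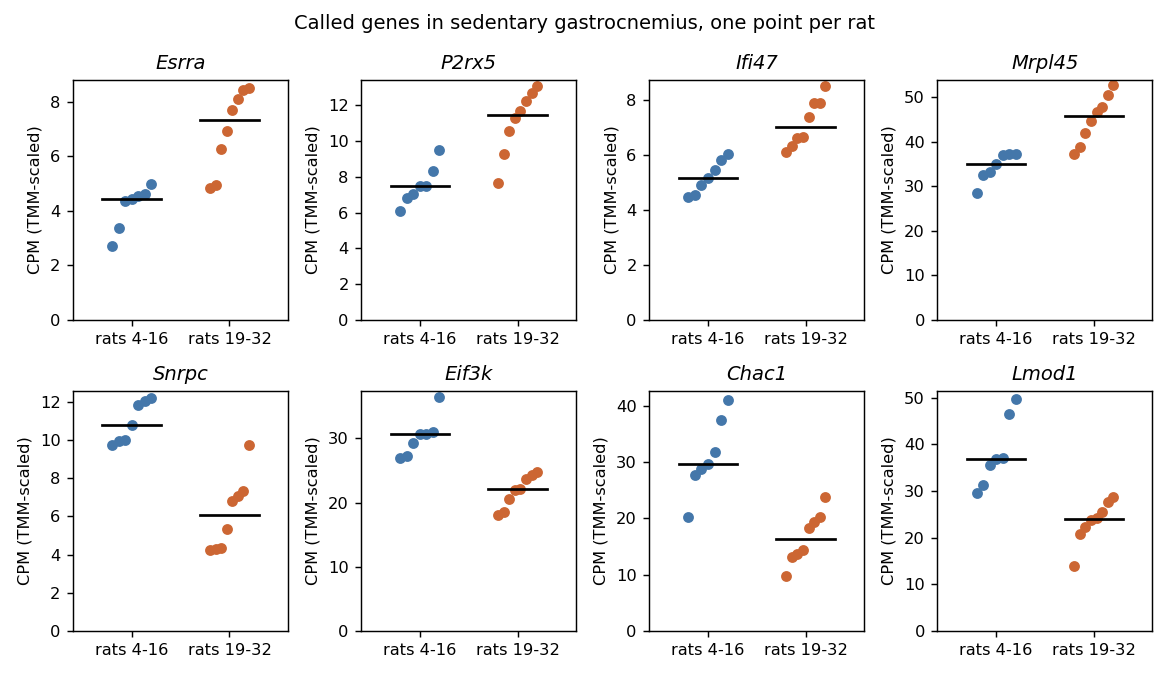
Level (CPM, linear axis from 0) of Esrra, P2rx5, Ifi47, Mrpl45, Snrpc, Eif3k, Chac1 and Lmod1 in each sedentary rat, by range of rat number; each point is 1 rat and each bar the median. The ranges do not overlap for Ifi47, Snrpc, Eif3k and Lmod1, and overlap for the other 4.

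Chac1 had the largest fall of the named genes. It ran from 20.2 to 41.1 CPM, median 29.7, in lower-numbered rats and from 9.78 to 23.7 CPM, median 16.3, in higher-numbered rats. Of the higher-numbered rats, 6 lay below every lower-numbered rat. The level in higher-numbered rats was 0.534 of that in lower-numbered rats (−0.90 ± 0.18, adjusted p 0.0463). Chac1 is a target of the integrated stress response, in which the transcription factor Atf4 turns on genes of amino acid supply and stress. It was the lone called member of the 12 tested genes of that list, whose median log2 fold change was 0.00. Atf4 itself had 93.6 to 112.7 CPM in lower-numbered rats and 78.3 to 90.9 CPM in higher-numbered rats, and its groups did not overlap, but it did not pass (−0.21 ± 0.06, adjusted p 0.0971). Ddit3, another gene of the list, had medians of 10.1 and 9.27 CPM (−0.01 ± 0.16, adjusted p 0.981).

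The 250 bases before the start of Chac1 are shown because Chac1 is a known Atf4 target; the sequence is RefSeq's, in build GRCr8, chr3:126795881-126796130 on the plus strand. The capitals mark a match, read on the other strand, to TGATGNAA, the element that Atf4 binds together with a C/EBP partner, 167 bases before the start.
Chac1: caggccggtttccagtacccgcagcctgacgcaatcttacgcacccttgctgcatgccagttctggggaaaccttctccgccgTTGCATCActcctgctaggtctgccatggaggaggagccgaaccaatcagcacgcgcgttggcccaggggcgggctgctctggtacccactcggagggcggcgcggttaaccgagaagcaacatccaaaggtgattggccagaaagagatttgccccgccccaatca
The motif was searched on both strands and was chosen after the values were seen. It was found in the same window of 3 of the 15 listed stress response genes (Chac1, Fgf21 and Trib3) and of 3.40% of 33469 promoters. Fgf21 was too low to test, and Trib3 had medians of 0.307 and 0.378 CPM (0.19 ± 0.40, adjusted p 0.863). A match is a description of the letters and not evidence of binding.

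Lmod1 and Rcsd1, both tied to actin filaments, fell. Lmod1 had 29.6 to 49.7 CPM, median 36.8, in lower-numbered rats and 13.98 to 28.8 CPM, median 23.9, in higher-numbered rats. The ranges did not overlap (−0.70 ± 0.14, adjusted p 0.0460). Lmod1 is known mainly from smooth muscle, and the summed smooth muscle and pericyte markers overlapped between the ranges, at 325 to 573 CPM and 359 to 622 CPM, with 0 called. Rcsd1, which binds the actin capping protein, had 62.8 to 80.3 CPM, median 73.9, against 44.8 to 62.7 CPM, median 52.4, again with no overlap (−0.44 ± 0.08, adjusted p 0.0243).

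Snrpc, Eif3k, Ubl7, Ube2s and Dnajc4 also fell. Snrpc had 9.74 to 12.2 CPM, median 10.8, in lower-numbered rats and 4.26 to 9.72 CPM, median 6.07, in higher-numbered rats. All 8 higher-numbered rats lay below the lowest of the others, although 1 only just (−0.84 ± 0.16, adjusted p 0.0339). Eif3k had 26.96 to 36.5 CPM, median 30.6, against 18.1 to 24.7 CPM, median 22.1. The ranges did not overlap (−0.48 ± 0.08, adjusted p 0.0243). Ubl7, a ubiquitin-like protein, had medians of 38.7 and 26.1 CPM (−0.46 ± 0.08, adjusted p 0.0299), and Ube2s, a ubiquitin-conjugating enzyme of the cell cycle, 26.9 and 21.4 CPM (−0.44 ± 0.08, adjusted p 0.0299). Dnajc4, a member of the J-domain family of co-chaperones, had medians of 12.4 and 9.33 CPM (−0.42 ± 0.08, adjusted p 0.0460). None of these 3 overlapped between the ranges.

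The most abundant named gene was Rtn2, a reticulon of the endoplasmic reticulum membrane. It ran from 191.8 to 239 CPM, median 210.9, in lower-numbered rats and from 130.2 to 180.7 CPM, median 153.4, in higher-numbered rats. The ranges did not overlap (−0.48 ± 0.08, adjusted p 0.0243). The other named genes that fell were Lsmem1, with medians of 66.9 and 44.5 CPM (−0.53 ± 0.11, adjusted p 0.0463), and Ajm1, a protein of cell junctions, with 33.3 and 21.9 CPM (−0.51 ± 0.09, adjusted p 0.0243). In both, 7 of the 8 higher-numbered rats lay below the lower range. The remaining 16 called genes had a clone name or no symbol, a level under 5 CPM, or a change smaller than those the naming rule took. Of these the largest in each direction were the clone-named pseudogene AABR07039058.1, from a median of 31.9 CPM to 11.8 CPM (−1.38 ± 0.23, adjusted p 0.0299), and Metazoa_SRP, a signal recognition particle RNA, from 0.625 CPM to 2.18 CPM (1.56 ± 0.24, adjusted p 0.0185). Neither overlapped between the ranges. A pseudogene and an RNA of a repeated family are uncertain, since counting could have split their reads between near-identical copies.

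The same split of rat numbers was examined in the trained rats, which share no library with the sedentary comparison. Of 13686 genes tested there, 1505 were called, 573 higher in higher-numbered rats (4.19%) and 932 lower (6.81%), and the libraries of 255 did not overlap (1.86%). With scaling by library totals alone the split was 924 higher and 553 lower. That count too moved with single libraries, to 875 without rat 10 and 930 without rat 5. It was 1352 without rat 2, whose library also held hepatocyte transcripts. Of the 35 genes called in sedentary rats, 27 had the same direction in trained rats and 17 were called in both, 15 of them lower and 2 higher. These 17 were 48.6% of the sedentary calls and 1.13% of the trained calls, and 0 were called in opposite directions. Over all 13442 genes tested in both, 8039 had the same direction (59.8%).

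Snrpc, Eif3k, Rtn2, Ajm1, Ubl7, Ube2s, Dnajc4 and Esrra were the named genes called in both arms. Eif3k in trained rats had 23.8 to 37.1 CPM, median 32.6, in the lower range and 17.3 to 22.1 CPM, median 19.6, in the higher range. Those ranges did not overlap either (−0.70 ± 0.08, adjusted p 0.000100). Snrpc in trained rats had medians of 11.9 and 5.17 CPM (−1.12 ± 0.20, adjusted p 0.00241). Esrra in trained rats had 4.09 to 6.57 CPM, median 4.94, and 7.72 to 9.38 CPM, median 8.01, with no overlap (0.69 ± 0.10, adjusted p 0.000186).

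The 250 bases before the start of Eif3k are shown as the named gene of smallest adjusted p in trained rats; they are RefSeq's, in build GRCr8, chr1:93397488-93397737 on the minus strand. The capitals mark a match to the motif of nuclear respiratory factor Nrf1, written as GCGC, an A and any base, and GCGC again and searched on both strands, 163 bases before the start.
Eif3k: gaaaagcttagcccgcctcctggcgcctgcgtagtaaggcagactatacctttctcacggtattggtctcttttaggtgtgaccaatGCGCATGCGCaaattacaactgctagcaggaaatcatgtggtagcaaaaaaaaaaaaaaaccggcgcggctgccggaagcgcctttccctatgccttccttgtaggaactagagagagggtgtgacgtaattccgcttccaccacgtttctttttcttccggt
This motif too was chosen after the values were seen. It was found in 2 of the 9 genes with a promoter entry among the 15 that fell in both arms (Eif3k and Park7), and in 3.75% of 33469 promoters.

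Several called genes had a fold change near 0 in trained rats. Chac1 in trained rats had 15.5 to 31.7 CPM, median 18.7, in the lower range and 10.0 to 30.7 CPM, median 22.3, in the higher range (0.04, adjusted p 0.922). Lmod1 had medians of 24.2 and 24.8 CPM (0.03, adjusted p 0.918), Rcsd1 58.8 and 53.9 CPM (−0.02, adjusted p 0.934), P2rx5 9.64 and 10.1 CPM (0.01, adjusted p 0.973), and P2rx6 9.52 and 9.31 CPM (−0.01, adjusted p 0.973). The difference between the arms was tested as an interaction over all 30 muscle libraries, and edgeR called 0 of 14033 genes (0%), with 1803 at an unadjusted p under 0.05 (12.8%). Of the 35 genes, 16 had an unadjusted edgeR interaction p under 0.05, the smallest for Rapgef2 (2.20e-05, adjusted p 0.154). The 35 were chosen by their sedentary difference, which is itself part of the interaction. Small interaction p values among them are therefore favoured by the choice and are no separate evidence of a difference between arms. DESeq2 called 54 genes for the interaction, of which 5 were among the 35: Cnst, Chac1, Wdr37, Rapgef2 and Lmod1 (adjusted p 0.00251 for Rapgef2 to 0.0462 for Chac1). It gave no adjusted p for 8163 of the 14033 genes, some of the 35 included, so these could not be called. Among them Rnf152 (DESeq2 unadjusted p 9.01e-06) and Ifi47 (8.28e-05) had a smaller unadjusted p than Chac1 (0.000354).

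**Figure D3:**
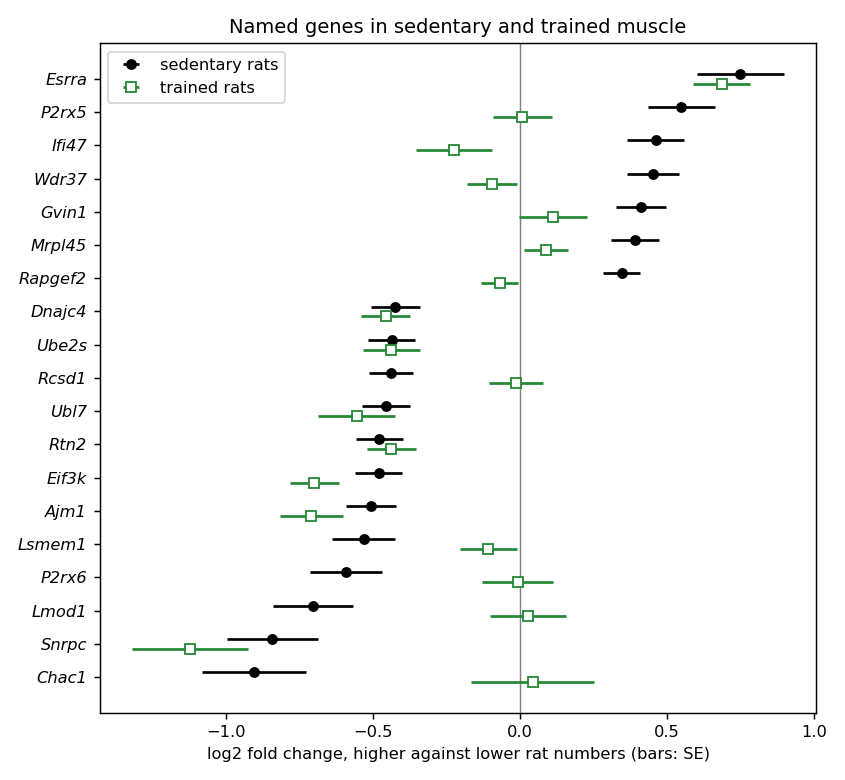
Log2 fold change of higher-numbered over lower-numbered rats, with its SE, for the 19 genes named by rule, in sedentary rats (black circles) and trained rats (green open squares). Snrpc, Eif3k, Rtn2, Ajm1, Ubl7, Ube2s, Dnajc4 and Esrra lie on the same side of 0 in both and were called in both; Chac1, Lmod1, Rcsd1, P2rx5 and P2rx6 lie near 0 in trained rats.

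Isolated mitochondria of the same 15 sedentary rats, captured with antibody and treated with RNase-A and proteinase-K before RNA extraction, were a second preparation of the same animals rather than further replicates. Of 19327 genes tested there, 5 were called (0.0259%). The 5 were Gria4 (0.78) and Mgam (0.42), which rose (0.0103% of genes), and Ppard (−0.69), Ntn1 (−0.60) and Cacna1h (−0.47), which fell (0.0155%), each with an adjusted p of 0.0489 (edgeR). In each of these 15 libraries all 15 hepatocyte markers were above 0, at 260 to 316 CPM in sum. In sedentary muscle other than that of rat 7 the sum was 25.7 to 58.2 CPM. Hepatocyte genes were thus counted in mitochondria, and whether the 5 calls rest on such background counts was not tested. The 5 calls were not stable: scaling by library totals alone gave 0 calls (5 genes at an unadjusted p under 0.05), libraries thinned to an equal total gave 1 that was none of the 5, and DESeq2 gave 13, of which 3 were among the 5. Ppard, a nuclear receptor for fatty acids, had a log2 fold change of −0.08 in the muscle libraries (adjusted p 0.787). Of the 35, 29 were tested in mitochondria, 20 had the same direction as in muscle and 0 were called. The share of all genes with the same direction in both preparations was not computed. The 20 therefore cannot be judged against it and are no measure of agreement. Gene totals in mitochondria were 712067 to 8344505 counts in lower-numbered and 888159 to 4091353 in higher-numbered rats. In sedentary muscle they were 20876971 to 32055355. The floor of 3 counts in mitochondria thus came to 0.360 to 4.21 CPM and 0.733 to 3.38 CPM. At this lower depth the lack of calls does not show that the muscle differences were absent. Heart gave values only, since just rats 14 and 16 had a lower number: the left ventricle of sedentary rat 16 and trained rat 14 held Esrra at 13.1 and 13.3 CPM and Eif3k at 42.9 and 40.4 CPM. Both lay within the ranges of the 12 higher-numbered rats, 10.9 to 15.2 CPM for Esrra and 37.5 to 45.7 CPM for Eif3k.

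The make-up of the libraries was compared with exact permutation tests over the 15 rats (two-sided, smallest possible p 0.0001554) on 12 measures. Ribosomal RNA took 0.101% ± 0.0533 (SD, n = 7) of nuclear-encoded counts in lower-numbered rats and 0.315% ± 0.232 (SD, n = 8) in higher-numbered rats, and the difference passed (exact permutation p 0.00202, adjusted over the 12 measures 0.0121). The ranges met, at 0.0276% to 0.189% and 0.157% to 0.865%, the highest being rat 29. Without rat 29 the difference was 0.135 in place of 0.213 percentage points (adjusted exact permutation p 0.0140). Without rat 7 or without rat 16 it missed the threshold (0.210 and 0.211 percentage points, adjusted exact permutation p 0.0599 in both). The share of protein-coding genes was lower by the same test, at 98.6% ± 0.105 (SD, n = 7) against 98.2% ± 0.287 (SD, n = 8; exact permutation, adjusted p 0.0121), and it missed the threshold without the same rats. Almost all of this RNA came from 1 feature, ENSRNOG00000068307, which carried 95.4% of the counts of 210 ribosomal RNA features. In trained rats the share was 0.0665% to 0.138% in the lower range and 0.169% to 1.20% in the higher, without overlap. Ribosomal RNA is removed during library preparation, and the part of this difference in the called genes was not tested.

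The mitochondrial genome gave 28.2% ± 3.76 (SD, n = 7) and 31.8% ± 4.19 (SD, n = 8) of counts (exact permutation p 0.103, adjusted 0.197). This share covers all 37 of its genes, ribosomal and transfer RNAs included. Its 13 messenger RNAs summed to 48006 to 84451 CPM in lower-numbered and 42906 to 91458 CPM in higher-numbered rats, so they were the smaller part of the share. Fibre type varied widely from rat to rat. No feature carried the symbol Myh1, another adult myosin heavy chain, so the shares given here leave it out. Of the counts of Myh7, Myh2 and Myh4, Myh4 took 50.9% to 92.3%, median 83.4%, in lower-numbered rats and 42.1% to 85.9%, median 63.0%, in higher-numbered rats, and it was the most counted of the 3 in all 15 libraries, from a part of the muscle labelled red. The groups overlapped, with rats 4 and 8 highest and rats 23 and 11 lowest (exact permutation p 0.115, adjusted 0.197). Myh2 took 10.7% ± 5.76 (SD, n = 7) and 18.6% ± 6.19 (SD, n = 8; exact permutation p 0.0275, adjusted 0.110; 0.0400 without rat 11 and 0.0443 without rat 24), and Myh7 11.5% ± 8.91 (SD, n = 7) and 16.1% ± 8.51 (SD, n = 8; adjusted exact permutation p 0.428). In bulk tissue, fewer fibres of a type and less RNA per fibre cannot be told apart.

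**Figure D4:**
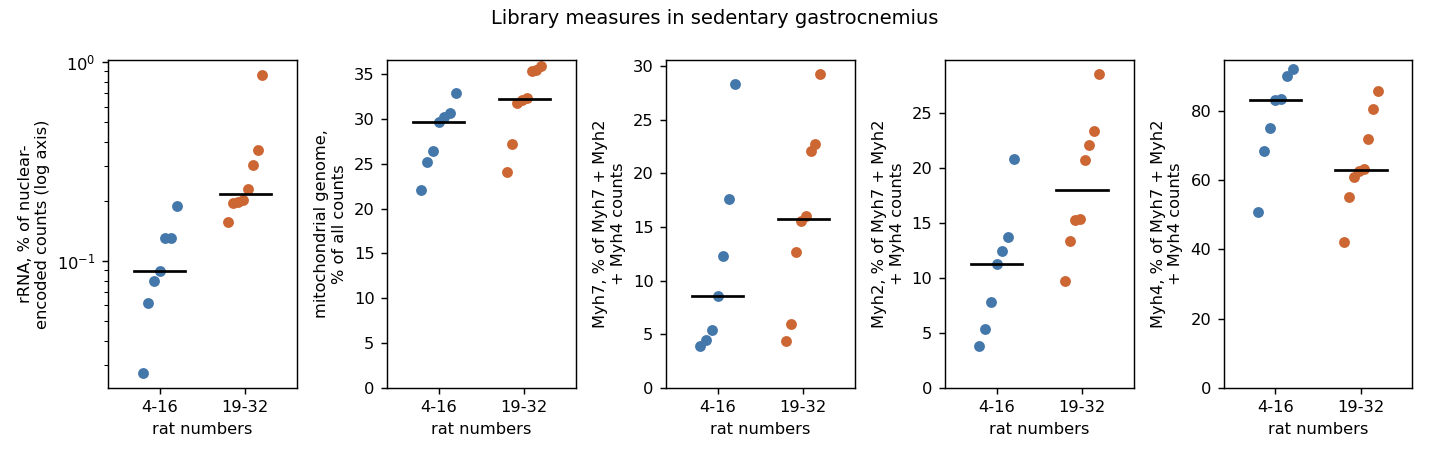
Share of nuclear-encoded counts from ribosomal RNA (log axis), share of all counts from the mitochondrial genome, and the shares of Myh7, Myh2 and Myh4 in their summed counts (all in percent), 1 point per sedentary rat with the median as a bar, by range of rat number. The ribosomal RNA share runs from 0.0276% to 0.189% in lower-numbered and from 0.157% to 0.865% in higher-numbered rats, and the other measures overlap more widely.

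In the lists of contractile genes 0 members were called. At an unadjusted p under 0.05, 7.61% of all genes tested were higher and 8.50% lower. Of 10 tested fast-fibre genes, 8 were lower and 1 higher at an unadjusted p under 0.05, with a median log2 fold change of −0.46 (−0.22 with the mitochondrial-genome share as a covariate), against −0.14 in trained rats. Myh4 had 26464 to 71578 CPM, median 51841, in lower-numbered rats and 21978 to 54824 CPM, median 36561, in higher-numbered rats (−0.44 ± 0.22, adjusted p 0.333). Myh2 went the other way (0.65 ± 0.25, adjusted p 0.214). Tnnc2, the calcium sensor of fast fibres, had 5413 to 8774 CPM in lower-numbered rats and 3804 to 5618 CPM in higher-numbered rats, a difference that missed the threshold (−0.57 ± 0.13, adjusted p 0.0629) and was called in trained rats (−0.54, adjusted p 0.00355). All 12 slow-fibre genes had a positive fold change, with a median of 0.42, but 0 passed even at an unadjusted p under 0.05. With the mitochondrial-genome share as a covariate that median was −0.09, and in trained rats it was −0.60. Without rat 7 the slow-fibre median was 0.33 and the fast-fibre median −0.44, and the slow-fibre median was 0.28 without rat 8 and 0.71 without rat 11.

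In the lists of fuel use 0 members were called either. The shares of all genes at an unadjusted p under 0.05 were again 7.61% higher and 8.50% lower. Of 20 genes of glycolysis and glycogen, 9 were lower and 1 higher at an unadjusted p under 0.05, with a median of −0.24 (−0.09 with the mitochondrial-genome share as a covariate). Pygm, the muscle glycogen phosphorylase and the most abundant of them, had medians of 5166.6 and 3533.2 CPM (−0.41 ± 0.14, adjusted p 0.170), and Gapdh had 2763 to 4207 CPM against 1817 to 3004 CPM (−0.53 ± 0.13, adjusted p 0.0629). All 20 genes of fatty acid oxidation had a positive fold change, with 3 at an unadjusted p under 0.05 and a median of 0.20, which was −0.01 with the mitochondrial-genome share as a covariate and 0.13 without rat 8. The same list had a median of −0.27 in trained rats, where all 20 were negative and 3 were called. Of all genes tested in trained rats, 6.81% were called lower. The 13 messenger RNAs of the mitochondrial genome had a median of −0.12, with 0 called, against −0.69 and 11 called lower in trained rats. That −0.12 was −0.38 with the mitochondrial-genome share as a covariate, −0.24 without rat 29 and −0.05 without rat 24. Mt-co1, the most abundant, had medians of 31990.9 and 27566.2 CPM (−0.07 ± 0.16, adjusted p 0.871).

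Heat shock and hypoxia genes had mostly positive fold changes, with 0 called. Among all genes tested, 7.61% were higher and 8.50% lower at an unadjusted p under 0.05. All 19 heat shock genes had a positive fold change, 8 of them at an unadjusted p under 0.05, with a median of 0.26 (0.12 with the mitochondrial-genome share as a covariate). Hsp90ab1, the most abundant, had medians of 604.6 and 660.3 CPM (0.04 ± 0.09, adjusted p 0.869). The stress-induced chaperone Hsp90aa1 had 32.2 to 60.1 CPM against 51.9 to 82.4 CPM (0.49 ± 0.12, adjusted p 0.0629). In trained rats the list had a median of −0.18 and 6 of its genes were called lower, against 6.81% of all genes. The summed level of the hypoxia list was 531 to 647 CPM in lower-numbered rats and 696 to 797 CPM in higher-numbered rats, with no overlap, and 4 of its 12 tested genes were higher at an unadjusted p under 0.05. No other of the 36 lists had sums without overlap. The most abundant gene of the hypoxia list was Vegfa, a growth factor for blood vessels, with 272 to 363 CPM against 333 to 460 CPM (0.39 ± 0.09, adjusted p 0.0629). Vegfa alone thus made up a large part of the sum. Hif1a, the oxygen-regulated subunit of the hypoxia transcription factor, had medians of 19.8 and 25.6 CPM (0.39 ± 0.10, adjusted p 0.0669). In trained rats the sums of the list overlapped, at 634 to 982 CPM and 670 to 931 CPM, and its median was −0.06.

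Of 76 tested genes of cytosolic ribosomal proteins, 18 were lower and 4 higher at an unadjusted p under 0.05, 0 were called, and the median was −0.07 (−0.04 without rat 4 or rat 24). Over all genes, 8.50% were lower and 7.61% higher at that p. Rps16 had 227 to 278 CPM in lower-numbered and 178 to 224 CPM in higher-numbered rats, with no overlap (−0.31 ± 0.07, edgeR adjusted p 0.0538). It was called in trained rats (−0.45, edgeR adjusted p 0.00268), where 25 of 75 of the list were called lower, against 6.81% of all genes. At the neuromuscular junction, acetylcholinesterase (Ache) had 49.7 to 84.4 CPM against 38.3 to 63.8 CPM (−0.52 ± 0.12, edgeR adjusted p 0.0616). In that list 0 of 16 tested genes were called, and the median was 0.01. Clock genes showed 0 called of 18, with 4 lower and 1 higher at an unadjusted p under 0.05. Of these 18, 8 had a positive and 10 a negative fold change, with a median of −0.02. The clock gene Per1 had 9.05 to 34.9 CPM against 5.62 to 15.95 CPM (−0.83 ± 0.28, adjusted p 0.171). Tnnc2, Gapdh, Hsp90aa1, Hif1a, Rps16, Ache, Per1, Atf4, Ddit3 and Ppargc1a were chosen after their values were seen.

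Other cells of the tissue gave summed marker levels that overlapped between the ranges, and 0 of their markers were called. Fibroblast markers summed to 3821 to 8371 CPM in lower-numbered rats and 3084 to 14281 CPM in higher-numbered rats, tendon markers to 108 to 350 CPM and 41.0 to 468 CPM, and Schwann cell and nerve markers to 24.6 to 105 CPM and 33.2 to 168 CPM. Endothelial markers summed to 532 to 761 CPM and 493.1 to 950 CPM, and macrophage and myeloid markers to 69.6 to 165 CPM and 77.1 to 219 CPM. The tendon markers Tnmd and Kera were at 0 counts in at least 1 higher-numbered rat, with medians of 4.85 and 8.55 CPM in that range. Of the 8 tendon markers tested, 6 had a positive fold change and 0 had an unadjusted p under 0.05. Their median log2 fold change was 0.12 (0.06 without rat 7). For the 3 adipocyte markers tested it was −0.60 (−1.22 without rat 7), the largest such move among the lists compared. Lymphocyte markers were at 0.660 to 1.64 CPM in sum over all 15 libraries, too low to test.

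On the 3 largest axes of variation the ranges overlapped, least on the third. The first principal component of the 1000 most variable genes held 32.2% of the variance and had rats 8 and 4, then rats 20 and 24, at one end and rats 29, 23 and 30 at the other. The first end thus held rats of both ranges, and the 3 farthest at the other were higher-numbered. Its leading genes included the tendon and cartilage genes Kera and Cilp2. The second held 13.9% and was led by tendon and cartilage genes such as Chad, Cilp2 and Comp. The third held 8.29%: all lower-numbered rats but rat 4 lay above 0 on it, and all higher-numbered rats but rats 31 and 32 lay below. Within each range the median gene had an SD of 0.188 (lower) and 0.228 (higher) on the log2 CPM scale.

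**Figure D5:**
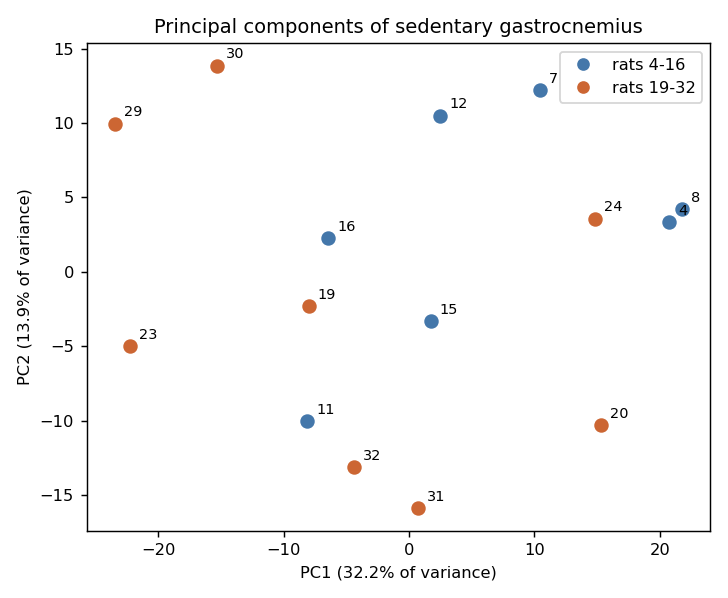
First against second principal component of log2 CPM in the 15 sedentary muscle libraries, 1 point per rat, labelled by rat number (blue for lower-numbered, orange for higher-numbered rats); the axes hold 32.2% and 13.9% of the variance. Rats 8, 4, 20 and 24 lie at one end of the first component and rats 29, 23 and 30 at the other.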

How the data were processed

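RNA sequencing counts of whole red gastrocnemius, isolated mitochondria and left ventricle were used as the authors deposited them: raw read counts per gene, whole numbers with no normalization. Per the submitters' processing notes, the tools were FastQC 0.74, cutadapt 4.6, STAR 2.7.11a and HTSeq, and the build was mRatBN7.2; the annotation and the strand setting are not given in the sources used here, so overlapping and antisense genes are uncertain.

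Groups came from the rat number in the titles. Genes passing edgeR's expression filter were fitted with edgeR 4.0.16 (TMM scaling, robust quasi-likelihood test; R 4.3.3), with Benjamini-Hochberg adjustment over all genes tested and a call at an adjusted p under 0.05. Fold changes are higher-numbered over lower-numbered rats. Sedentary muscle (15 libraries), trained muscle (15 libraries) and sedentary mitochondria (15 libraries) were fitted separately, and the difference between arms as an interaction over the 30 muscle libraries. CPM in the text are counts over the library total. Library measures were compared with exact permutation tests (scipy 1.17.1), adjusted over 12 measures. Alternatives were DESeq2 1.42.0, other scalings, no expression filter, thinned totals, the mitochondrial-genome share as a covariate, consecutive rats summed and each rat left out. In sedentary muscle, totals of 20876971 to 32055355 counts set a floor of 3 counts at 0.0936 to 0.144 CPM, counting error only.

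Named genes were called genes with a symbol that is not a clone or locus name and at least 5 CPM in the higher group: the 12 largest and 12 smallest fold changes and the 5 smallest adjusted p in each direction. For some lists with no called member, the most abundant one was named. It was not named for the interferon, slow-fibre, fatty acid oxidation, clock, neuromuscular, cytosolic ribosomal and cell marker lists. Other genes are stated as chosen after their values were seen and do not stand for their lists. The rat ranges and lists were chosen with earlier results of these data known. Promoters came from RefSeq (17 of 19 named genes matched by symbol), and their coordinates (GRCr8) are not those of the counts.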

Additional observations from a re-analysis of the deposited data

Results flagged for a closer look

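In 134 sets of 7 or 8 libraries (the groups' levels of the measures, lists and named genes), 10 held a highest or lowest library whose gap to its neighbour passed Dixon's 95% critical value; chance flags about 1 set in 20. The library of rat 7 stood apart for the hepatocyte markers (957 CPM in sum), and that of rat 29 for the ribosomal RNA share (0.865%). The library of rat 24 was the highest of the higher-numbered rats for nuclear genes detected at an equal total (13428) and for macrophage and myeloid markers (219 CPM). It was the lowest for antioxidant genes (748 CPM), nuclear-encoded respiratory chain subunits (11315 CPM) and mitochondrial ribosomal proteins (1325 CPM). The library of rat 8 was the lowest of the lower-numbered rats for mitochondrial ribosomal proteins (1339 CPM), and rat 11 was the highest for Eif3k (36.5 CPM). Rat 30 was the highest of the higher-numbered rats for sterol and fatty acid synthesis (510.1 CPM).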

How the results depend on the processing

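In sedentary muscle, where 35 genes were called, the count was 20 without the expression filter (19 of the 35), 418 with DESeq2 (34 of the 35), 227 in a fit over all 30 muscle libraries (33 of the 35) and 0 with consecutive rats summed, where all 35 kept their direction, the largest unadjusted p was 0.00184 and the smallest adjusted p 0.151 (1859 genes at an unadjusted p under 0.05); leaving out 1 rat gave 0 to 162. Relative log expression factors gave 33 (33 of the 35), library totals 24 (22), thinned totals 25 (24) and the mitochondrial-genome share as a covariate 35 (14). In trained muscle, leaving out 1 rat gave 875 (without rat 10) to 1945 (without rat 27), an alternative chosen after seeing the data, as was leaving rats 2 and 7 out of the interaction (0 called, 1661 at an unadjusted p under 0.05). With library totals alone 62.6% of the trained calls were higher, against 38.1% with TMM, and the median of all genes moved by 0.06. The interaction gave 54 calls with DESeq2, which left 8163 of 14033 genes without an adjusted p, and 0 in every edgeR alternative run. In mitochondria, library totals gave 0 calls (5 genes at an unadjusted p under 0.05), thinned totals 1, which was none of the 5 called, and DESeq2 13. Leaving out 1 rat gave differences of 0.135 to 0.236 percentage points for ribosomal RNA and −0.462 to −0.342 for protein-coding genes; both missed the threshold without rat 7 (0.210 and −0.413) and without rat 16 (0.211 and −0.388; adjusted exact permutation p 0.0599 each). With consecutive rats averaged they were 0.223 and −0.402 (adjusted exact permutation p 0.114); both had the smallest unadjusted p that 4 against 4 allows (0.0286), so this says nothing about stability. The ribozyme share differed by 0.118 to 0.192 points, past the threshold without rat 4, and the Myh2 share by 6.41 to 9.52 points, past it without rat 11 (9.52) and without rat 24 (9.10). None of the 35 genes changed direction under any of the 24 alternatives run for them; the trained and mitochondrial calls were not followed gene by gene. The fold changes of the 35 genes kept their call in 427 of 839 recomputations and their direction in the other 412. These recomputations reuse the libraries in which the 35 were chosen, so a kept direction says little about stability. No paired analysis was possible because the 2 ranges hold different rats and share no replicate number. Genes near the floor of 3 counts were not detectable reliably at this depth.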

Other observations

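Trained rat 2 was the other muscle library with hepatocyte transcripts, at 172 CPM of albumin (Alb) and 372 CPM over the list. In the left ventricle, sedentary rat 20 held Alb at 1156 CPM. The mitochondrial library of rat 7 held Alb at 15.4 CPM, within the 8.74 to 26.9 CPM of the other sedentary mitochondrial libraries.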
